A study of Mus musculus with 15 samples.

Results

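The cholesterol synthesis genes Hmgcs1, Idi1, Fdps, Fdft1, Sqle, Lss, Cyp51 and Dhcr7, were described in whole eyes of mouse models of Huntington's disease (HD). They were chosen by name, and 7 of the 8 had a value among the 22180 genes measured by a probe set (the group of array probes for 1 transcript) with a single gene symbol. Idi1 had none, because its probe set is annotated to Idi1 and Gm13502 together, so it is given by name and promoter only. The levels came from 15 Affymetrix Mouse Gene 2.1 ST arrays as log2 values. The groups were R6/1 mice at 6 months of age (3 arrays), wild type (WT) mice at 6 months (4 arrays), R6/2 mice at 9 weeks (4 arrays) and WT mice at 9 weeks (4 arrays), the WT mice being C57BL/6J littermates. Both HD lines carry a transgene with exon 1 of mutated human HTT, with 131 ± 3.1 (SD) CAG repeats in R6/1 and 162 ± 2.8 (SD) in R6/2, on top of their own intact Htt genes, and both were sampled at the symptomatic stage. By the methods the samples are pools of RNA, of how many mice is not given in the sources used here, and the p-values therefore cover the spread from sample to sample and no more. The comparisons ask whether transcripts of the eye differ between symptomatic HD mice and WT mice of the same age.

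Cholesterol is built in the endoplasmic reticulum and its neighbouring compartments from acetyl units. Hmgcs1 makes HMG-CoA, the precursor of mevalonate, Idi1 and Fdps carry the isoprenoid units on to farnesyl diphosphate, Fdft1 joins these to squalene, Sqle and Lss oxidise and close squalene to lanosterol, and Cyp51 and Dhcr7 act on the way from lanosterol to cholesterol. The genes of the pathway are switched on by the transcription factor SREBP2 (gene Srebf2) when sterols in the membrane are low. In and around the eye, the retina makes part of its own sterol, and the lipid-secreting glands of the lids and orbit build sterol, fatty acids and wax for the tear film.

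The start regions of these genes were searched for promoter motifs, which the choice by name did not use. Of the 8 genes, 5 (Hmgcs1, Idi1, Lss, Cyp51 and Dhcr7) matched the RefSeq promoters of build GRCm38.p6, each from 250 bases before to 50 after a start site, with 7 promoters in all because Dhcr7 has 3. Sqle, Fdps and Fdft1 are named only. Both strands were searched for the sterol regulatory element TCACNCCAC, the CCAAT box and the GC box GGGCGG, and no match in the promoters of these genes overlapped another. The string TCACNCCAC was found in 1 of the 7 promoters, that of Hmgcs1, at -137 from the start, and in 1.24% of all 32851 promoters. Other forms of the sterol regulatory element were not searched, so a promoter without this string is not shown to lack such an element. The CCAAT box was found in 5 of the 7, against 37.4% of all promoters, and the GC box in 6 of the 7, against 35.7%. A match is a description of letters and no evidence of binding. The promoters shown are that of Hmgcs1 (chr13:119690101-119690400, plus strand), which holds the match to TCACNCCAC, and those of Lss (chr10:76531355-76531654, plus strand) and Cyp51 (chr5:4104648-4104947, minus strand). The levels of Lss and Cyp51 moved together below. Capitals mark the matches.
Hmgcs1: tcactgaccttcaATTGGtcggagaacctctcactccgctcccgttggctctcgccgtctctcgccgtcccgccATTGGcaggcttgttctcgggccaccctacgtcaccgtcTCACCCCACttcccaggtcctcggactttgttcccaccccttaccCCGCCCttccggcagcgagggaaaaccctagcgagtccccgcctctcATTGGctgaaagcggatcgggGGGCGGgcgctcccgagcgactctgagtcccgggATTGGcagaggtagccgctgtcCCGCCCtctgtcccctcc
Lss: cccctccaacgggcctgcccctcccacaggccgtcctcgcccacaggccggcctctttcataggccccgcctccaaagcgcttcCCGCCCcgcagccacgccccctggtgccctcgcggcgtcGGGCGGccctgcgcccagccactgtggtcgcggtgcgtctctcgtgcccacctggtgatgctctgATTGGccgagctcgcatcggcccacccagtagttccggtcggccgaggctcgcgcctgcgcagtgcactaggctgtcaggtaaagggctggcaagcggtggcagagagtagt
Cyp51: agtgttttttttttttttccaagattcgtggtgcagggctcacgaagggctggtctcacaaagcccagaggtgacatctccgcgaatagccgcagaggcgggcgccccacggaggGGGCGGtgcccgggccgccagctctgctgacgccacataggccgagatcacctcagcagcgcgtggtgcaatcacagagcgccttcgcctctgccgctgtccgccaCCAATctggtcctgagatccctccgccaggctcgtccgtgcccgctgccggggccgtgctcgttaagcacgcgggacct
In Hmgcs1 the sterol regulatory element stands between CCAAT and GC boxes, while Lss and Cyp51 hold a CCAAT box at -62 and -29, with GC boxes farther upstream.

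Some arrays stood apart, and they touch the results below. The array medians were alike (2.78 to 2.95), but the interquartile range of all genes was 2.26 on R6/1 replicate 3 and 2.17 on WT replicate 3 at 6 months, against 2.43 to 2.61 on the others. At 6 months the labels give 3 R6/1 and 4 WT arrays, whereas the methods give these numbers the other way round. The mean of 10 cone genes was 3.70 to 3.79 in R6/1 and 5.04 to 5.41 on WT replicates 1 to 3, but 3.95 on the fourth WT array. Groups are used as labelled, and results at 6 months are also given without this array and with it counted as R6/1. At 9 weeks, WT replicates 2 and 4 had the highest mean level of a list of genes of lipid-secreting glands, as described below. The tissue label was borne out by its markers, with list means of 7.73 to 8.49 for rod photoreceptors, 7.57 to 8.45 for lens fibres and 7.02 to 7.77 for corneal epithelium over all arrays.

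The members spread in different ways over the arrays, and Sqle spread most. Sqle encodes squalene epoxidase, a rate-limiting enzyme of the later pathway. Its log2 level was 5.87, 5.75 and 5.28 in R6/1 replicates 1 to 3 and 5.60, 6.08, 5.39 and 6.02 in WT replicates 1 to 4 at 6 months. At 9 weeks it was 5.80, 5.90, 5.88 and 6.16 in R6/2 and 6.21, 8.17, 5.85 and 8.83 in WT. WT replicates 2 and 4 at 9 weeks lay above all other 13 arrays, while WT replicate 3 lay within the R6/2 range.

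Lss, the lanosterol synthase that closes squalene into the first sterol ring system, had the same arrays at its top. Its log2 level was 4.58, 4.98 and 4.36 in R6/1 and 4.77, 4.88, 4.04 and 5.14 in WT at 6 months. It was 4.76, 4.96, 5.06 and 4.91 in R6/2 and 5.22, 6.30, 4.72 and 6.43 in WT at 9 weeks. Replicates 2 and 4 of WT at 9 weeks were again the highest of the 15 arrays, and WT replicate 3 was the lowest array at 9 weeks.

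Fdps, the farnesyl diphosphate synthase that also feeds the prenylation of proteins, followed with a smaller range. It was 5.40, 5.63 and 5.05 in R6/1 and 5.42, 5.52, 4.97 and 5.79 in WT at 6 months. The 4 R6/2 arrays lay close together, at 5.20, 5.15, 5.28 and 5.27, while WT at 9 weeks had 5.33, 6.17, 5.13 and 6.59. The R6/2 and WT values overlapped through WT replicate 3.

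Cyp51, the lanosterol demethylase, varied most among the WT arrays at 6 months. It was 3.89, 4.15 and 3.64 in R6/1 and 4.18, 4.78, 3.47 and 4.52 in WT at 6 months. It was 4.32, 4.44, 4.54 and 4.34 in R6/2 and 4.37, 4.82, 4.31 and 5.18 in WT at 9 weeks. In both pairs of groups the highest arrays were WT, but WT also held the lowest one.

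Dhcr7, the reductase of the last step to cholesterol, had an order of its own, with both group means at 9 weeks above both at 6 months. It was 4.68, 4.45 and 4.37 in R6/1 and 4.50, 4.17, 4.17 and 4.73 in WT at 6 months. It was 4.87, 4.73, 4.99 and 4.85 in R6/2 and 4.94, 4.87, 4.73 and 5.26 in WT at 9 weeks. WT replicate 4 at 9 weeks was the highest array, but replicate 2 was not among the highest.

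Hmgcs1 and Fdft1 varied too little over the arrays to pass the filter on variance (interquartile ranges of 0.16 and 0.13, where the lowest that passed was 0.22). Hmgcs1, which makes HMG-CoA, was 7.38, 7.64 and 7.39 in R6/1, 7.39, 7.87, 7.38 and 7.68 in WT at 6 months, 7.16, 7.35, 7.24 and 7.22 in R6/2, and 7.38, 7.36, 7.22 and 7.22 in WT at 9 weeks. Fdft1, the squalene synthase, ranged from 7.21 to 7.43 in R6/1, 6.94 to 7.75 in WT at 6 months, 7.26 to 7.44 in R6/2 and 7.31 to 7.46 in WT at 9 weeks. For both, WT replicates 2 and 4 at 9 weeks lay among the other arrays at 9 weeks.

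**Figure D1:**
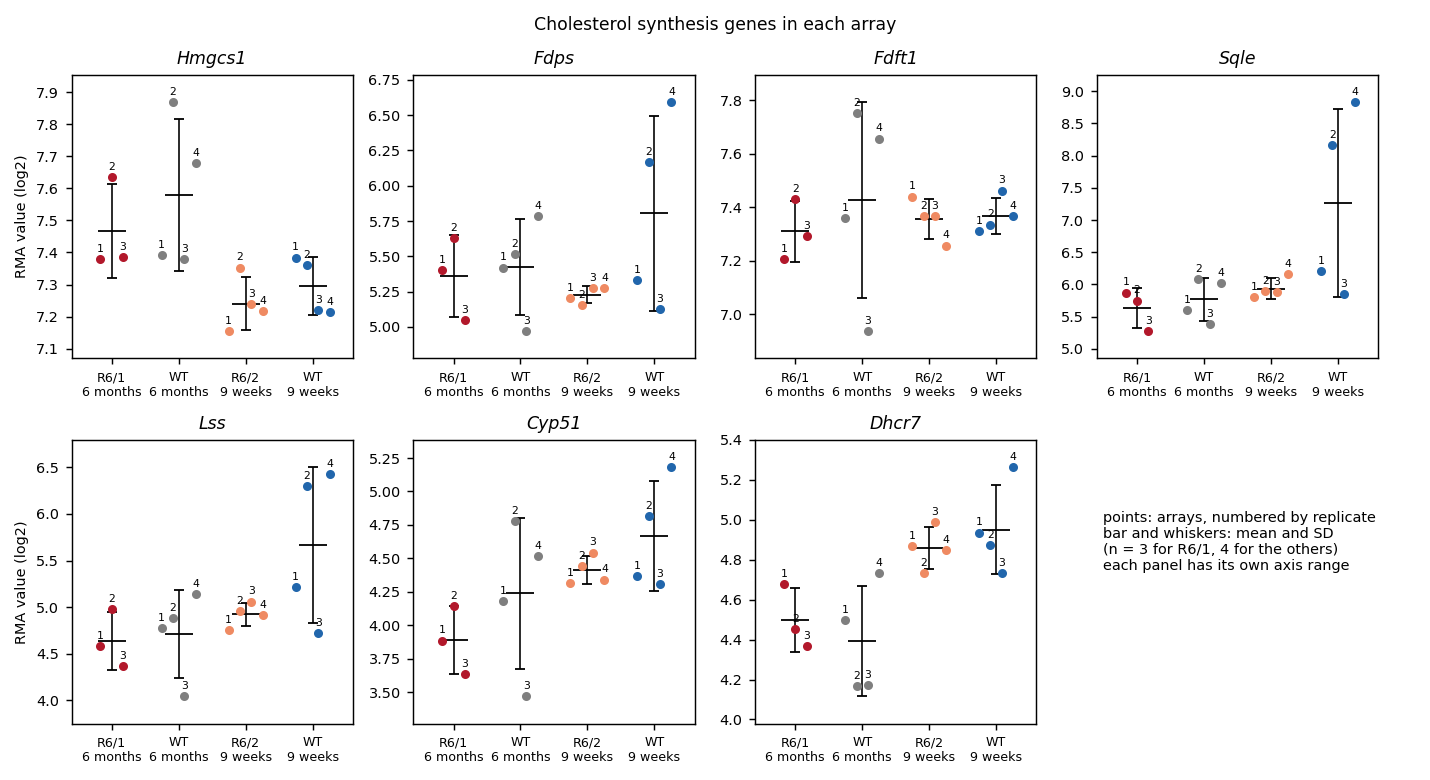
RMA values (log2) of the 7 measured genes on each array, numbered by replicate, with the mean and SD of each group as bars (n = 3 for R6/1 and 4 for the other groups). Sqle, Lss, Fdps and Cyp51 were highest on WT replicates 2 and 4 at 9 weeks. The WT range contained or overlapped the R6/2 range for every gene.

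The order of the group means differed between the genes. Sqle averaged 7.27 ± 1.46 in WT at 9 weeks, 5.94 ± 0.16 in R6/2, 5.77 ± 0.33 in WT at 6 months and 5.63 ± 0.31 in R6/1 (SD). Lss had the same order, with 5.67 ± 0.83, 4.92 ± 0.13, 4.71 ± 0.47 and 4.64 ± 0.31, and so did Cyp51, with 4.67 ± 0.41, 4.41 ± 0.10, 4.24 ± 0.57 and 3.89 ± 0.25. No neighbours in these 3 orders were farther apart than the larger of their SDs, and the same held for Fdps and Fdft1. The neighbours that were farther apart lay across the ages, R6/2 (4.86 ± 0.10) above R6/1 (4.50 ± 0.16) for Dhcr7 and R6/1 (7.47 ± 0.15) above WT at 9 weeks (7.30 ± 0.09) for Hmgcs1.

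Seen across all 15 arrays, Lss, Fdps, Sqle and Cyp51 varied together, and the other members followed them less closely. Over the 15 arrays the Pearson correlation of a gene with the mean of the other members was 0.97 for Lss, 0.91 for Fdps and 0.87 for both Sqle and Cyp51, against 0.59 for Dhcr7, 0.30 for Fdft1 and -0.10 for Hmgcs1. Among the 8 arrays at 9 weeks, Sqle and Fdps correlated at 0.99. There Fdft1 correlated with the other members at -0.21, Hmgcs1 at 0.12 and Dhcr7 at 0.71. Among the 7 arrays at 6 months Fdft1 was at 0.89 and Hmgcs1 at 0.76, while Dhcr7 was at 0.31. Both replicates 3 at 6 months, the arrays of low interquartile range, were the lowest of their groups for Sqle, Fdps, Lss and Cyp51. These values describe 15 arrays that share groups, ages and array quality, and they carry no test.

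None of the 5 members that passed the filter on variance passed the test in R6/1 eyes. A linear model was fitted with limma over 11090 genes. Calls needed an unadjusted p below 0.05 together with a Benjamini-Hochberg adjusted p below 0.20, and 0.0541% of the genes tested were called in either direction. Of the 5, Cyp51 had the largest difference, at -0.35 (SE 0.26, adjusted p = 1.00 in limma), with a 95% interval from -0.90 to 0.20. The values were 0.11 for Dhcr7 (interval -0.25 to 0.46), -0.06 for Fdps (-0.66 to 0.53), -0.07 for Lss (-0.79 to 0.65) and -0.14 for Sqle (-1.20 to 0.92). Hmgcs1 and Fdft1, read from the same model over all 22180 genes, were at -0.11 (interval -0.38 to 0.15) and -0.12 (-0.44 to 0.21). The intervals leave room for changes of Sqle in either direction, and hold the others within about 1 log2 unit. R6/1 and WT arrays overlapped for all 7 members, where 3.06% of the genes tested did not overlap.

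The signs of the small differences of Sqle, Fdps and Lss in R6/1 depended on single arrays. Cyp51 and Dhcr7 kept theirs in all 32 alternatives, but many of these could not change a sign. Those that altered only the filter, threshold, probe set rule or arrays of the younger mice left both group means at 6 months unchanged. A sign could change only where the values, weights, covariates, block, labels or arrays at 6 months were altered. Without R6/1 replicate 3, Sqle was at 0.04, Fdps at 0.09 and Lss at 0.07, all turned in sign. Without the array labelled WT replicate 4, Fdps was at 0.06, Lss at 0.08, Sqle at -0.06, Cyp51 at -0.25 and Dhcr7 at 0.22. With this WT array counted as R6/1, they were at 0.16, 0.20, 0.04, -0.10 and 0.28, in the same order of genes. No member was called in any of these settings, with 0.478% of the genes tested called both without this WT array and with it counted as R6/1. At 6 months both replicates 3, the arrays of low interquartile range, deviated together (r of 0.75). The pairs of replicates 1 and 2 (0.41 and 0.34) lay little above the highest pair of unlike number (0.31). With the replicate number as a block (which leaves WT replicate 4 without a partner), 0.685% of the genes tested were called and again no member.

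In R6/2 eyes the members leaned lower, but none was called. Sqle differed by -1.33 (SE 0.47, adjusted p = 0.39 in limma), a level of 39.8% of that in WT. Lss differed by -0.75 (SE 0.31, adjusted p = 0.44) and Fdps by -0.58 (SE 0.26, adjusted p = 0.47). These 3 of the 5 members tested had an unadjusted p under 0.05, where 5.56% of the genes tested had one and were lower. Cyp51 was at -0.26 (interval -0.77 to 0.25) and Dhcr7 at -0.09 (-0.42 to 0.24). In the model over all genes, Hmgcs1 was at -0.05 (-0.30 to 0.19) and Fdft1 at -0.01 (-0.31 to 0.29). The median of the 7 was -0.26, against 0.02 over all genes, and 0.171% of the genes tested were called in either direction. R6/2 and WT arrays overlapped for all 7 members, where 6.93% of the genes tested did not. In whole eyes, fewer cells of a type and less RNA per cell cannot be told apart.

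**Figure D2:**
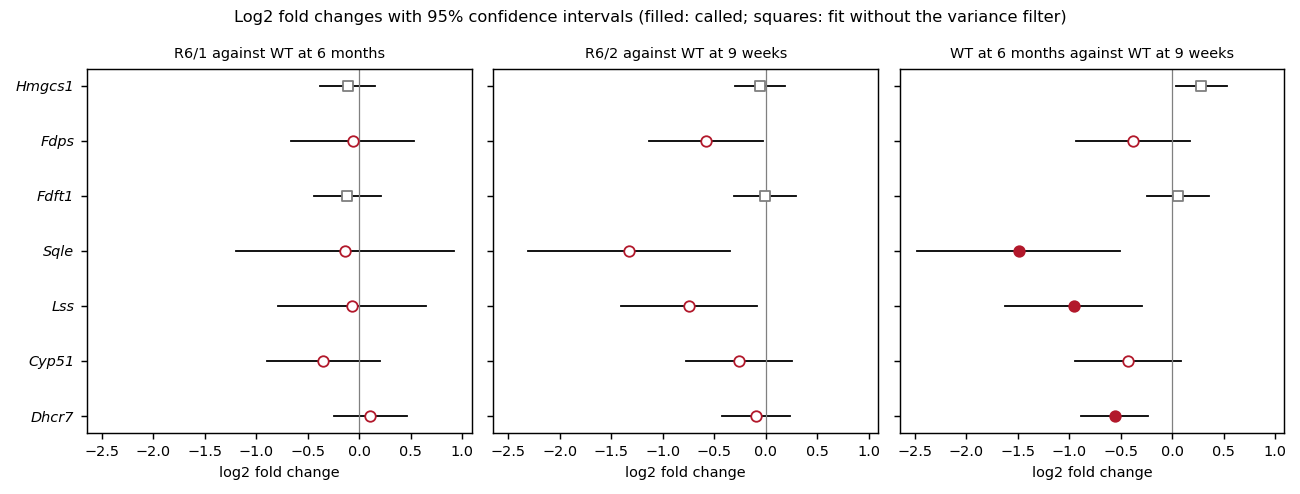
Log2 fold changes of the 7 genes with 95% confidence intervals for both HD models, each against WT of its age, and for the older against the younger WT eyes; filled points were called, and squares come from the model without the filter on variance. No gene was called in either HD model, and Sqle (-1.49), Lss (-0.96) and Dhcr7 (-0.56) were called between the ages.

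The R6/2 result rested on which WT arrays were in the model. WT replicates 2 and 4 were the highest arrays at 9 weeks for Sqle, Lss, Fdps and Cyp51. Leaving both out was therefore bound to move the differences of these genes toward or past 0, and is no independent check. Without WT replicates 2 and 4, Sqle was at -0.10 (SE 0.22), Lss at -0.05 (SE 0.26), Fdps at -0.00060 (SE 0.21), Cyp51 at 0.07 (SE 0.27) and Dhcr7 at 0.02 (SE 0.19), with no member called and 0.0541% of the genes tested called in either direction. With 1 array left out at a time, Sqle ranged from -0.81 without WT replicate 4 to -1.80 without WT replicate 3. Without WT replicate 3, Sqle, Lss (-1.06) and Fdps (-0.80) were called lower, together with 5.56% of the genes tested. Without WT replicate 1, Sqle was the only member called lower (-1.68), together with 1.8% of the genes. The 3 genes were also called with limma's array weights, where 9.98% of the genes tested were called lower, and Sqle was called with the replicate number as a block, where 3.06% were called lower. The count of members called therefore moved between 0 and 3 with single arrays, together with the count over all genes.

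**Figure D3:**
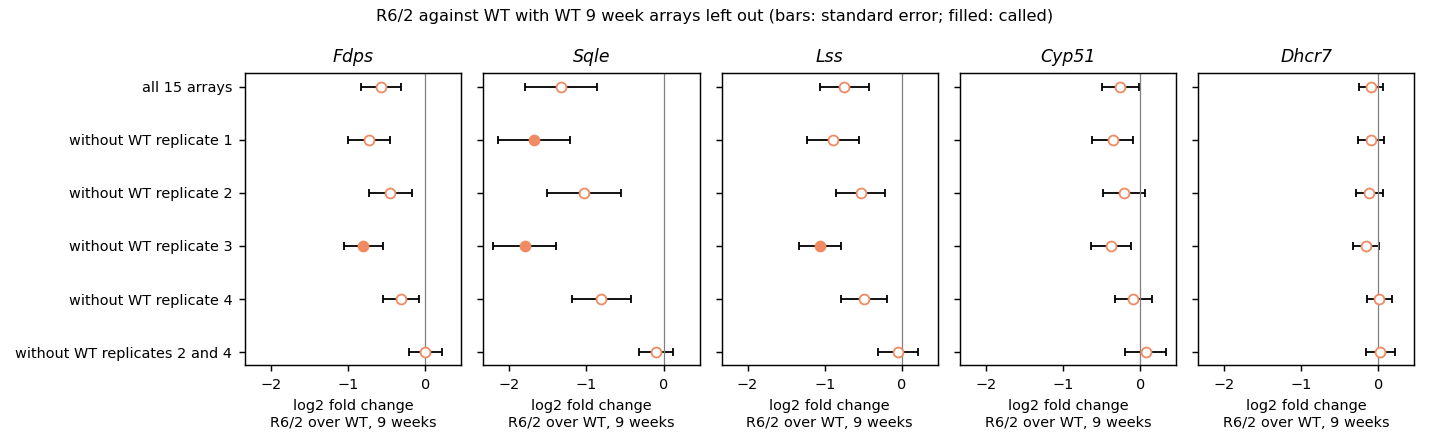
Log2 fold change in R6/2 against WT at 9 weeks, with standard errors as bars, for the 5 tested genes with all arrays and with the named WT arrays at 9 weeks left out; filled points were called. Sqle moved between -1.80 without WT replicate 3 and -0.10 without WT replicates 2 and 4, whereas Dhcr7 stayed near 0. WT replicates 2 and 4 had the highest Sqle levels, so leaving them out was bound to shrink its difference.

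Most genes of a lipid-secreting gland list were high on the same WT arrays as Sqle, Lss, Fdps and Cyp51. Of the 12, 8 had WT replicates 2 and 4 as their highest arrays at 9 weeks. The other 4 (Awat1, Dgat2, Fa2h and Elovl4) did not, and Elovl4 was lowest on WT replicate 4 (7.31). The mean of 12 genes of wax and lipid glands was 3.87, 3.64, 4.13 and 5.14 in R6/2 replicates 1 to 4, against 4.90, 6.37, 3.88 and 6.92 in WT replicates 1 to 4 at 9 weeks. At 6 months it was 3.63 to 4.09 in R6/1 and 3.68 to 4.12 in WT. Elovl3, a fatty acid elongase of such glands, was at 1.86, 1.86, 3.04 and 7.14 in R6/2 and at 6.04, 9.11, 1.64 and 9.51 in WT at 9 weeks, so its range within each group was wider than the difference between them. Mc5r, the melanocortin receptor of sebaceous and orbital glands, was at 6.83 and 7.89 on WT replicates 2 and 4, and at 2.69 to 4.38 on the other 6 arrays at 9 weeks. The wax synthases Awat1 and Awat2 stayed at 2.59 or lower on all 15 arrays. Of 12 list genes, 11 were tested and none was called in R6/2, with a median of -1.46 and 7 of the 11 at an unadjusted p under 0.05. Of all genes tested, 5.56% had such a p and were lower. The part of gland content in the values of Sqle, Lss, Fdps and Cyp51 was not tested. The mean of a list of 13 lacrimal acinar genes was highest on R6/2 replicate 3 (3.75) and WT replicate 2 (3.53). It lay at 2.83 to 3.04 on the other arrays at 9 weeks. Both high means came mostly from Obp1a and Lcn11. Obp1a was at 8.48 and 6.78 on these arrays, and at 1.42 to 1.77 on the others at 9 weeks. Most genes of the list, such as Aqp5, Pigr, Bhlha15 and Amy1, were not raised on both arrays. The list mean therefore does not give the level of lacrimal acini as a whole. Sqle was at -1.34 with that list as a covariate. Markers of other cell types lay on both sides in R6/2. Below 0 were 12 of 12 skeletal muscle genes (median -1.32, 2 called), 10 of 11 adipocyte genes (median -0.52, none called), 8 of 10 cone genes (median -0.57, 3 called), 10 of 10 rod genes (median -0.19, none called) and 9 of 10 myelin genes (median -0.12, none called). Above 0 were 10 of 10 lens fibre genes (median 0.21), 6 of 7 corneal genes (median 0.16) and 6 of 7 genes of Mueller glia (median 0.17), none called. The part of these cell types in the members' values was not tested.

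**Figure D4:**
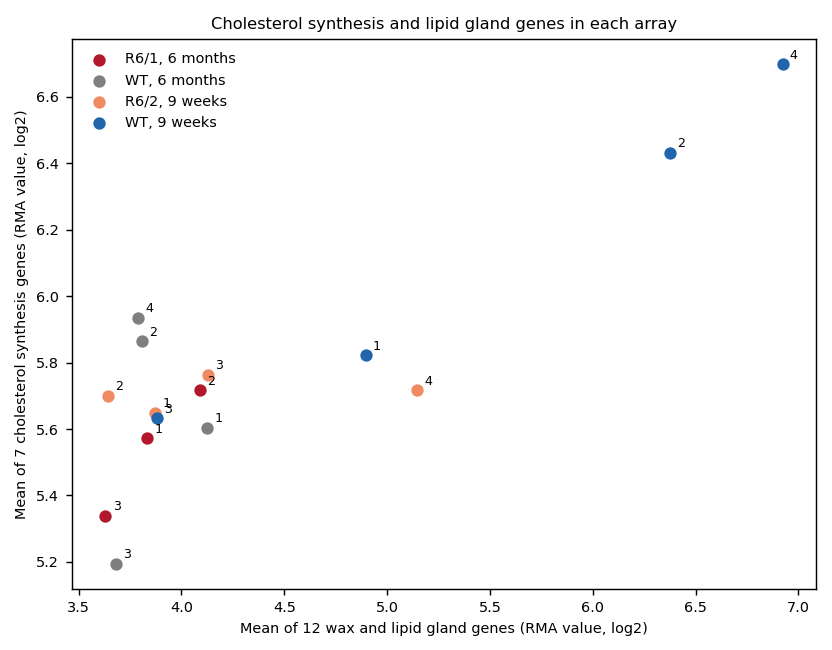
Mean log2 RMA value of the 7 cholesterol synthesis genes (vertical) against the mean of 12 wax and lipid gland genes (horizontal) on each of the 15 arrays, numbered by replicate. WT replicates 2 and 4 at 9 weeks lay highest on both axes (members 6.43 and 6.70, gland genes 6.37 and 6.92), and R6/2 replicate 4, with gland genes at 5.14, had the members at 5.72.

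The HD models were not shown to differ. Subtracting the R6/2 change from that in R6/1 gave 1.19 for Sqle (SE 0.68, adjusted p = 1.00 in limma), 0.68 for Lss, 0.51 for Fdps, 0.20 for Dhcr7 and -0.09 for Cyp51. None was called, and 0.0% of the genes tested were. The intervals were wide, from -0.26 to 2.64 for Sqle.

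Between the ages, 3 of the 5 members tested were called lower in the older WT eyes (6 months) than in the younger (9 weeks). Age and cohort cannot be told apart in this comparison. Sqle differed by -1.49 (SE 0.47, adjusted p = 0.085 in limma), Lss by -0.96 (SE 0.31, adjusted p = 0.099) and Dhcr7 by -0.56 (SE 0.16, adjusted p = 0.065). Fdps (-0.38, adjusted p = 0.43) and Cyp51 (-0.43, adjusted p = 0.32) were not called. No member was called higher. Beside them, 7 of the 11 wax and lipid gland genes tested were called lower. Of all genes tested, 11.5% were called lower and 7.74% higher (1270 and 858 genes, against 1378 and 1655 with quantile normalization). Hmgcs1 was at 0.28 (SE 0.12, adjusted p = 0.23) in the model over all genes, opposite in sign to the genes called. WT arrays of the 2 ages overlapped for 6 of the 7 members and met in a tie for Dhcr7, where 8.54% of the genes tested did not overlap. For Dhcr7 the highest array at 6 months, the fourth WT array, and the lowest at 9 weeks, replicate 3, had the same value (4.73), and the other WT arrays at 6 months were at 4.50 or lower.

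Dhcr7 depended least on single arrays in this comparison. Without WT replicate 2 or replicate 4 at 9 weeks, Dhcr7 alone was called (-0.59 and -0.46), with 4.11% and 4.72% of the genes tested called lower, while Sqle was at -1.19 and -0.97 and Lss at -0.75 and -0.70. Without both arrays no member was called, and 1.55% of the genes were called lower. Dhcr7 was then at -0.44 (SE 0.19, adjusted p = 0.36), Sqle at -0.26, Lss at -0.26 and Fdps at 0.20. Both arrays were the highest for Sqle, Lss and Fdps, so the differences of these genes were bound to move toward or past 0. With the fourth WT array at 6 months left out, Sqle (-1.58), Lss (-1.10) and Dhcr7 (-0.67) were still called. In this setting 961 of the genes tested were called lower.

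The rest of the pathway showed the same arrays in part. Of 13 other enzymes of cholesterol synthesis, 10 were measured and 6 tested. None was called in R6/1 or R6/2, with medians of -0.01 and -0.11. Pmvk, the phosphomevalonate kinase, came nearest in R6/2, at -0.78 (adjusted p = 0.40). It was at 5.38, 5.43, 5.62 and 5.64 in R6/2 and at 5.66, 6.81, 5.49 and 7.24 in WT at 9 weeks. Mvd, the mevalonate diphosphate decarboxylase, was at 3.91 to 4.22 in R6/2 and at 3.94, 5.06, 4.16 and 4.91 in WT. Nsdhl, a sterol dehydrogenase after Cyp51, was at 6.71 to 6.78 in R6/2 and at 6.74, 7.29, 6.59 and 7.63 in WT. In these 3, WT replicates 2 and 4 were the highest arrays at 9 weeks, as they were for 6 of the 10 enzymes measured (also Msmo1, Lbr and Ebp). For the other 4 they were not, with Mvk and Hsd17b7 highest on WT replicate 3 and Tm7sf2 on WT replicate 1. Msmo1, the sterol methyl oxidase, was at 5.32 to 5.71 in R6/2 and 5.44 to 5.79 in WT, with little difference between arrays. In R6/1 the lowest p was that of Mvk, the mevalonate kinase, at -0.16 (adjusted p = 1.00). Between the ages, Mvd (-0.77), Pmvk (-0.96) and Mvk (-0.30) were called lower in WT at 6 months.

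Among 9 regulators of sterol synthesis, 8 were measured and 6 tested, and none was called in either model. Insig1, which holds the SREBP proteins in the endoplasmic reticulum and is itself an SREBP target, was at 7.07, 7.12, 7.27 and 7.60 in R6/2 and at 7.33, 9.10, 6.96 and 9.04 in WT at 9 weeks (-0.84, adjusted p = 0.46). Srebf1, whose products favour genes of fatty acid synthesis, was at 4.92 to 5.25 in R6/2 and at 4.91, 5.96, 4.94 and 6.76 in WT. Insig2, the paralogue of Insig1, ran the other way, at 4.87, 4.77, 4.77 and 5.01 in R6/2 and 4.39, 4.37, 4.43 and 4.64 in WT (0.39, adjusted p = 0.45), without overlap. Srebf2 was at 6.99 to 7.33 in R6/2 and 7.09 to 7.41 in WT. In R6/1 the lowest p was that of Scap, the escort of SREBP, at 0.24 (adjusted p = 1.00). Between the ages, Srebf1, Srebf2, Insig1 and Scap were called lower and Insig2 higher in WT at 6 months.

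Genes that move or remove cholesterol were mixed. Of 10 genes of uptake and transport, 8 were measured, 5 tested and none called in a model. Npc1, the membrane partner of Npc2 in the export of cholesterol from lysosomes, did not pass the filter on variance, and was at 5.81 to 6.15 in R6/2 and at 6.07, 7.34, 5.87 and 7.96 in WT at 9 weeks (-0.86, adjusted p = 0.55 in the model over all genes). Mylip, which marks the LDL receptor for breakdown, did not pass it either, and was at 6.43, 6.55 and 6.05 in R6/1 and at 5.96, 6.28, 5.44 and 6.26 in WT at 6 months (0.36, adjusted p = 1.00 in the model over all genes). Npc2, which hands cholesterol on inside lysosomes, was at 6.03 to 6.88 in R6/2 and at 6.41, 8.66, 6.04 and 8.98 in WT at 9 weeks (-1.19, adjusted p = 0.43), with WT replicates 2 and 4 highest, as for Npc1. Of 11 genes of efflux, esterification and oxidation, 9 were measured and 4 tested. Abca1, the pump that loads cholesterol onto apolipoproteins, was at 5.74, 5.66, 6.12 and 5.79 in R6/2 and at 5.27, 5.39, 4.80 and 5.50 in WT at 9 weeks, with no overlap (0.59, adjusted p = 0.40). At 6 months it was at 6.07, 6.24 and 5.66 in R6/1 and at 5.47, 5.47, 4.83 and 6.10 in WT (0.53, adjusted p = 1.00), where only the array labelled WT replicate 4 reached the R6/1 range. Neither difference was called. Of 9 genes of other isoprenoid branches, 8 were measured, 4 tested and none called in a model.

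Fatty acid synthesis, which shares the SREBP switch, showed the 9-week pattern at larger size in most genes. Of 13 genes, 12 were measured and 11 tested. WT replicates 2 and 4 were the highest arrays at 9 weeks for 9 of the 12. They were not for Fads1, Fads2 and Mlxipl, and Fads1 (6.08) and Fads2 (5.93) were lowest on WT replicate 4. In R6/2 none was called, and the median was -1.25. An unadjusted p under 0.05 was found for 10 of the 11, where 5.56% of the genes tested had one and were lower. Fasn, the fatty acid synthase, was at 7.20, 6.34, 6.79 and 7.16 in R6/2 and at 7.94, 9.93, 7.37 and 10.21 in WT at 9 weeks, without overlap (-1.99, adjusted p = 0.21). Scd1, the stearoyl-CoA desaturase, was at 7.44, 6.57, 6.75 and 7.80 in R6/2 and at 8.43, 9.67, 7.46 and 10.13 in WT (-1.78, adjusted p = 0.26). In R6/1 the median was -0.08 and none had an unadjusted p under 0.05. Between the ages, 9 of the 11 were called lower in WT at 6 months, where 11.5% of the genes tested were.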

How the data were processed

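RNA of mouse eyes, pooled into 15 samples, was hybridised to 1 array each. The authors corrected background, normalized and summarised probes with RMA (the affy library), and deposited log2 values of 41345 probe sets, without background levels; precision is limited by how many arrays there are. The methods and the labels name different labelling kits. Of the probe sets, 23521 with 1 gene symbol were kept and a gene was read from the one of highest mean, which gave 22180 genes. The upper 50% by interquartile range over all arrays (11090 genes), as the methods filter on variance, entered a model of 4 group means in limma 3.58.1 (R 4.3.3), two-sided, with calls at an unadjusted p below 0.05 together with a Benjamini-Hochberg adjusted p below 0.20. The model was tested on simulated data first. Members, lists and tests were chosen with earlier results of these data known. Named beside the members were the list genes of lowest p in each model, up to 4 a list, the 10 genes most correlated with the mean of the members, and marker genes that stand beside a result. The labels name no pairing. At 6 months arrays of the same number correlated in their deviations from the group means (r of 0.41, 0.34 and 0.75). At 9 weeks they did not in every pair (0.11, -0.29, -0.22 and 0.26). Pairs of unlike number ranged from -0.55 to 0.31 at 6 months and from -0.29 to 0.35 at 9 weeks. Alternatives covered the filters, threshold, probe set, normalization, array weights, covariates, replicate block and left-out arrays. Promoters came from RefSeq (GRCm38.p6).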

Additional observations from a re-analysis of the deposited data

How the results depend on the processing

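In R6/1, no member was called under any of the 32 alternatives. Without the array labelled WT replicate 4, and with the replicate block, Fdps was at 0.057 and Lss at 0.076. With that array counted as R6/1, Fdps was at 0.16, Lss at 0.20 and Sqle at 0.041. With single arrays left out, the R6/1 difference ranged from -0.27 to 0.037 for Sqle, from -0.21 to 0.092 for Fdps and from -0.29 to 0.076 for Lss. In R6/2, members called lower numbered 0 with all arrays, 3 with array weights, 1 with the replicate block, and 0 to 3 with single arrays left out (3 without WT replicate 3). Without WT replicates 2 and 4 at 9 weeks, Cyp51 was at 0.072 and Dhcr7 at 0.024, and Dhcr7 ranged from -0.16 to 0.012 with single arrays left out. The difference between the models was then -0.043 for Sqle, -0.063 for Fdps and -0.022 for Lss without WT replicates 2 and 4. For Cyp51 it was 0.0032 with the replicate block, 0.16 with the array labelled WT replicate 4 counted as R6/1, and -0.35 to 0.090 with single arrays left out. Between the ages, members called lower numbered 3, but 0 at an adjusted p under 0.05. They numbered 0 without WT replicates 2 and 4 at 9 weeks, where Fdps was at 0.20. With single arrays left out they numbered 1 to 4. The 4 came without WT replicate 3 at 9 weeks, where 1517 of the genes tested were called lower. With genes of low mean removed in place of low variance, 1 member, Hmgcs1 (0.28), was among the 1047 genes called higher. Over all genes tested, calls in R6/2 numbered 11 lower and 8 higher, against 56 and 80 with quantile normalization and 30 and 30 with arrays of 1 age in the model. Between the ages, 1270 were lower and 858 higher, against 176 and 100 at an adjusted p under 0.05. The cause of these changes was not tested. The block changed no other call of a member. One listed alternative, leaving out WT replicates 1 and 3 at 9 weeks, was not run, because it would keep 2 arrays picked for their high values. The one without WT replicates 2 and 4, which was run, keeps arrays of lower values for Sqle, Lss, Fdps and Cyp51. Signal over background was not given, so a dim gene cannot be told from an absent one.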

Other observations

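The 10 genes whose values over the 15 arrays were most like the mean of the members were Piga, Fam234a, Slc25a16, Tmbim6, Aldh3b2, Ei24, Pde8a, Nipal2, Esrp2 and Sorl1, with Pearson correlations of 0.960 to 0.978. Piga, which starts the building of GPI anchors, was at 4.63 to 4.93 in R6/2, against 4.54 to 6.61 in WT at 9 weeks. Aldh3b2, an aldehyde dehydrogenase, was at 4.80 to 4.91 in R6/2 and at 4.92, 6.84, 4.45 and 7.35 in WT at 9 weeks. Esrp2, an epithelial splicing factor, was at 3.67 to 3.77 in R6/2 and at 3.98, 5.07, 3.46 and 5.52 in WT at 9 weeks. All 10 were highest on WT replicates 2 and 4 at 9 weeks. These genes were picked for their likeness over the same arrays, so their values are a description.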
